A study of Homo sapiens with 4 samples.

Results

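The genes described here are 10 members of the BCL2 family, which sets the threshold for mitochondrial cell death. They were taken by symbol from 56832 genes in a table of normalised read counts from A375 cells, a melanoma line in long use. The anti-apoptotic members are BCL2, BCL2L1, MCL1, BCL2A1 and BCL2L2, and the pro-apoptotic members are BCL2L11, PMAIP1, BAK1, BID and BMF. All 10 symbols were found once, and all 10 passed the filter for testing, a mean normalised count of at least 10. Wild-type A375 cells, grown in DMEM with serum, were kept for 48 h with octanoate (a fatty acid of medium chain length) at 1 mM or with the isopropanol vehicle. Each group holds 2 libraries. The labels do not say whether these came from separate cultures, so the spread between libraries behind the p-values may be technical. The main test also borrows part of that spread from genes of similar level, so it is not each gene's own spread alone.

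In a living cell the anti-apoptotic proteins sit on the mitochondrial outer membrane and bind their pro-apoptotic relatives. The BH3-only proteins, among them the products of BCL2L11 (BIM), PMAIP1 (NOXA), BID and BMF, carry a stress signal by occupying the groove of the protective proteins or by activating the pore formers. BAK1 and BAX encode those pore formers, which open the outer membrane, release cytochrome c and start caspase activation. Each BH3-only protein prefers certain partners, NOXA binding chiefly MCL1 and the BCL2A1 product (BFL1/A1). In melanocytes and melanoma BCL2 and BCL2A1 are known targets of the lineage factor MITF.

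Read totals recovered from the table ran from 67785956 to 78005035 per library, and mitochondrial transcripts held from 3.03% to 3.21% of the reads. SOX10, a defining factor of the melanocytic lineage, stood between 34072 and 41363 normalised counts in every library, whereas the pigment genes MLANA (34.9 to 52.0) and TYR (1.93 to 3.93) were low. Of 7 melanoma markers, 6 were tested, 1 was called higher (PMEL) and 2 lower (MITF and S100B). The 5 leukocyte markers summed to between 31.8 and 40.1 normalised counts per library, and the 1 that was tested was not called. Of 5 keratinocyte markers KRT1 was at 0 in each library, and the sum went from 1146 and 970 in vehicle to 281 and 243 in octanoate, nearly all of it KRT14, which was called lower (log2 difference -2.08). The 5 fibroblast markers summed to 1314 and 1316 in vehicle and 1121 and 1106 in octanoate, with COL1A1 (log2 difference -0.69) and COL1A2 (-0.99) called lower and 3 not called. The 4 endothelial markers summed to 580 and 576 in vehicle and 792 and 787 in octanoate, with PECAM1 and VWF called higher. The part of these markers in the results below was not tested, and in a bulk library a change in which cells are present cannot be told apart from a change in RNA per cell.

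To compare survival with death genes, octanoate was set against vehicle with limma on log2(normalised count + 1), fitted over 20250 genes. A gene was called at a Benjamini-Hochberg adjusted p under 0.05. Of the 10 members 7 were called, against 29.9% of all genes tested and 38.3% (20.4% higher and 17.9% lower) among genes averaging 100 or more, the range in which every member lies. On the anti-apoptotic side 4 of 5 rose and none was called lower, where 16.2% of all genes were called higher. On the pro-apoptotic side 1 of 5 rose and 2 fell, where 13.7% of all genes were called lower. The median log2 difference was 0.26 for the anti-apoptotic members, -0.053 for the pro-apoptotic members and 0.0050 for all genes tested. The pro-apoptotic members leave out other death genes of the family, such as BAX, BOK, BAD and HRK, described further below. Over all 20 tested family genes 10 were called (50%), 7 higher and 3 lower, with a median log2 difference of 0.015. The libraries of the groups did not overlap for 8 of the 10 members, 5 of them higher and 3 lower in octanoate, against 63.1% of genes tested (32.6% higher and 30.5% lower). With 2 libraries against 2 an exact permutation test of a single gene cannot give a two-sided p below 0.333.

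BCL2A1, whose product BFL1/A1 protects hematopoietic and melanoma cells, rose most of all members. Its normalised count was 89.3 and 87.2 with vehicle but 344 and 331 with octanoate. Both treated libraries thus stood far above both controls, and replicates lay close together. The means were 88.3 ± 1.5 and 337 ± 9.26 (SD, n = 2 each), a ratio of 3.82. The log2 difference was 1.92 (SE 0.14, adjusted p by limma 7.99e-11). The vehicle level rests on 91 and 90 reads, the treated level on 357 and 305. In GENCODE 29 the gene lies on the minus strand at chr15:79960889-79971446 (GRCh38).

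The promoters of the members were searched for sites of factors that carry stress and lineage signals, and those of the 2 members with the largest rises among the genes with a window, BCL2A1 and PMAIP1, are shown. RefSeq promoter windows (GRCh38.p14, the 250 bases before each start) were found for 8 of the 10 members, 14 windows in all, and MCL1 and BCL2L2 had none. The motifs were the C/EBP-ATF response element TGATGCAA, the cyclic AMP response element core TGACGT, the M-box TCATGTG bound by MITF, the AP-1 site TGANTCA and the NF-kappaB consensus. They were searched on both strands, and none of the matches below overlaps another of these motifs apart from its own reverse. Each stretch is written 5′ to 3′ on the gene's strand, with the matched motif in capitals. Since an annotated transcript of BCL2A1 starts further upstream, only the 30 bases around each match are shown for it. For PMAIP1 all bases before the annotated exons are shown.
BCL2A1, C/EBP-ATF response element, chr15:79971241-79971270, minus strand: atattataaagTGATGCAAacagaaattcc
BCL2A1, M-box, chr15:79971204-79971233, minus strand: tccatgtatcaTCATGTGtcataactcagt
PMAIP1, cyclic AMP response element core on the opposite strand, chr18:59899746-59899947, plus strand: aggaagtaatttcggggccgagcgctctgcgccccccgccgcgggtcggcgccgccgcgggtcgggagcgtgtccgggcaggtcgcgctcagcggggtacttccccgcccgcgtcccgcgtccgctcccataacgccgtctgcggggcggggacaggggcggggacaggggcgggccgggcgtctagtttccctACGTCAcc

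Among all 35116 promoter windows, 0.772% held the C/EBP-ATF response element and 2.52% the M-box. BCL2A1 was the only member whose window held either. The core TGACGT was in 7.10% of all windows and, among members, only in that of PMAIP1. An NF-kappaB consensus, present in 9.96% of windows, was found among members only in BMF, and no member window held TGANTCA (6.57% of all). These are matches of letters, not measured binding.

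MCL1, a short-lived protein that cells need for survival from hour to hour, was by far the most abundant member and rose as well. Its normalised count was 41726 and 40862 in vehicle and 68517 and 69330 in octanoate. The groups were wide apart, and replicates differed by little. The means were 41294 ± 612 and 68923 ± 575 (SD, n = 2 each), a ratio of 1.67, and the log2 difference was 0.74 (SE 0.059, adjusted p by limma 6.78e-10). The gene lies at chr1:150574551-150579738 on the minus strand. Its splice forms, of which the short form promotes death, are summed in a count per gene.

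BCL2L1, which encodes BCL-XL and by splicing the pro-death BCL-XS, rose less. It stood at 3729 and 3353 normalised counts in vehicle and 4459 and 4018 in octanoate. Both treated libraries were above both controls, although the gap between the groups was narrower than the distance between replicates. The log2 difference was 0.26 (SE 0.067, adjusted p by limma 0.00454). The call was lost without vehicle 2 (log2 difference 0.18, adjusted p by limma 0.107) and without octanoate 1 (0.18, adjusted p by limma 0.0906).

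BCL2L2, which encodes BCL-W, stood at 2254 and 2187 in vehicle and 2547 and 2617 in octanoate. The treated libraries were above the controls by several times the distance between replicates. Its log2 difference was 0.22 (SE 0.063, adjusted p by limma 0.0112). Without vehicle 2 or without octanoate 2 the adjusted p by limma was 0.0848 and 0.0889.

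BCL2, the founding member of the family and the target of venetoclax, did not pass the test. Its normalised counts were 795 and 876 in vehicle and 748 and 699 in octanoate, so both treated libraries were the lower ones. The log2 difference was -0.21 (SE 0.084, adjusted p by limma 0.0687), with a 95% interval from -0.38 to -0.032 before adjustment. BCL2 was the only anti-apoptotic member with a negative difference.

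PMAIP1, the gene of NOXA, was the only pro-apoptotic member that rose. It stood at 2207 and 2342 in vehicle and 3609 and 3417 in octanoate, with no overlap. The means were 2274 ± 95.6 and 3513 ± 135 (SD, n = 2 each), a ratio of 1.54. The log2 difference was 0.63 (SE 0.064, adjusted p by limma 4.25e-08). The gene lies on the plus strand at chr18:59899948-59904306, and its promoter is printed above. The rise of PMAIP1 thus accompanied that of MCL1, its main partner at the protein level, and the normalised count of MCL1 per kb of exon was 9.72 and 8.97 times that of PMAIP1 in vehicle and 9.76 and 10.4 times in octanoate. The octanoate ratios lay above the vehicle ratios, but the gap between the groups was narrower than the distance between libraries of a group, and the ratio was not tested.

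BMF, a BH3-only protein that is held at the cytoskeleton and released by stress, fell. Its normalised counts were 200.2 and 160 in vehicle and 110 and 105 in octanoate. The controls differed more from each other than the treated libraries did, yet both were above them. The log2 difference was -0.73 (SE 0.16, adjusted p by limma 0.000823), and the level rests on 97 to 204 reads per library. The gene lies at chr15:40087890-40108892 on the minus strand.

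BAK1, the pore former, fell by 0.26 on the log2 scale (SE 0.072, adjusted p by limma 0.00842). Its normalised counts were 2146 and 2021 in vehicle and 1859 and 1631 in octanoate. Octanoate 2 was the lowest library, and without it the log2 difference was -0.16 (adjusted p by limma 0.190). Without vehicle 1 it was -0.21 (adjusted p by limma 0.104).

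BID and BCL2L11 were not called. BID, the BH3-only protein that links caspase 8 to the mitochondrion, stood at 2673 and 2388 in vehicle and 2745 and 2455 in octanoate. BCL2L11, which encodes BIM, stood at 637 and 624 in vehicle and 568 and 650 in octanoate. For both genes the groups overlapped. The log2 difference of BID was 0.039 with a 95% interval from -0.11 to 0.19 (adjusted p by limma 0.730). That of BCL2L11 was -0.053 with an interval from -0.24 to 0.13 (adjusted p by limma 0.714). These intervals are not adjusted for the number of genes.

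**Figure D1:**
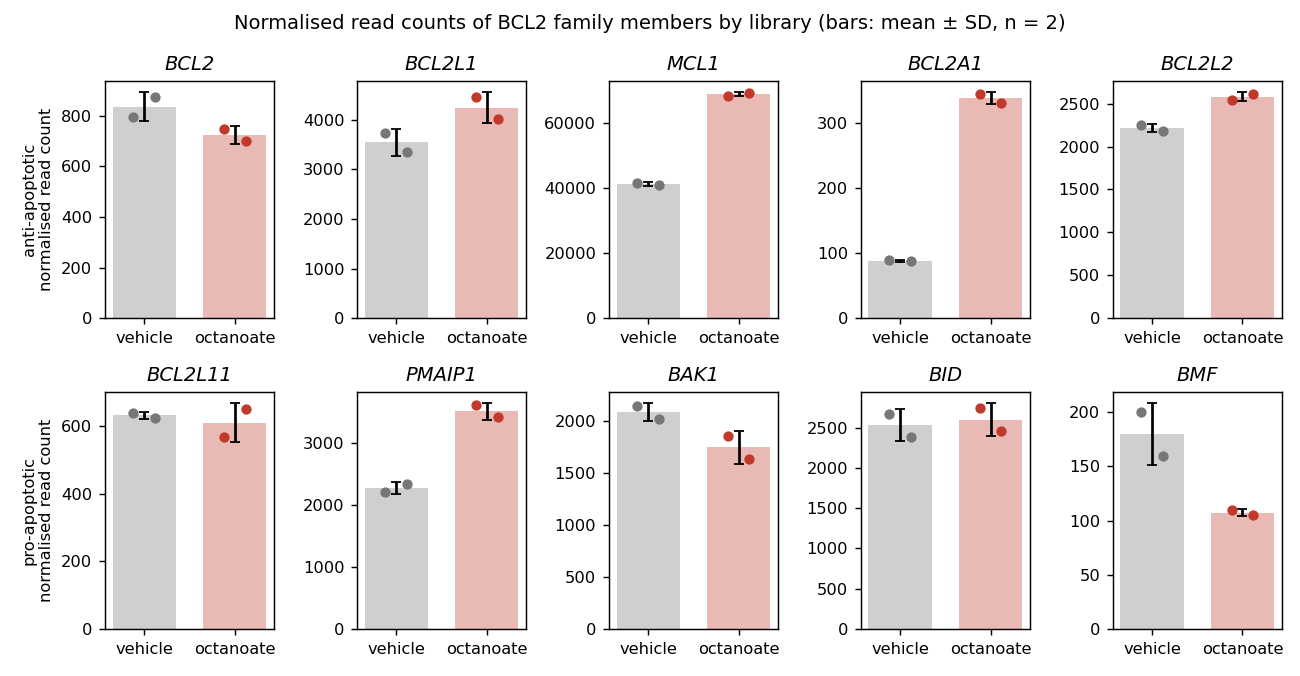
Normalised read count (vertical axes, each from 0) of the 10 members in vehicle and octanoate, the anti-apoptotic genes above and the pro-apoptotic genes below. Points are libraries and bars are means with the SD (n = 2). BCL2A1, MCL1 and PMAIP1 are clearly higher in both octanoate libraries, BMF is lower in both, and BID and BCL2L11 overlap.

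**Figure D2:**
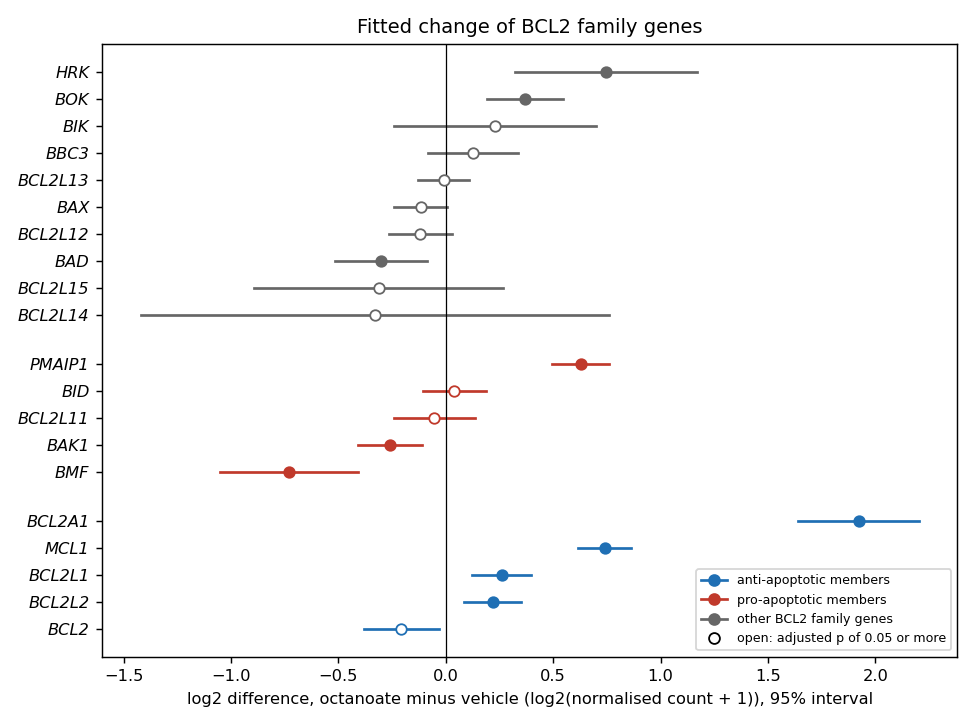
Fitted log2 difference (octanoate minus vehicle, horizontal axis) with its 95% interval for the 10 members and the 10 tested other family genes, filled where the adjusted p was under 0.05. Of the anti-apoptotic members only BCL2 lies left of 0, and the pro-apoptotic members spread from -0.73 for BMF to 0.63 for PMAIP1.

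Levels of different members were compared only per length, as normalised count per kb of exon in GENCODE's basic transcript set. In vehicle MCL1 led with 10109 ± 150 (SD, n = 2), followed by BCL2L1 with 1239 ± 92.9 and PMAIP1 with 1083 ± 45.5. BAK1 (942 ± 39.9) and BID (901 ± 71.7) came next, and their libraries overlapped. BCL2L2 stood at 616 ± 13.1. The lowest levels were those of BCL2L11 (103 ± 1.52), BCL2A1 (81.0 ± 1.38), BCL2 (71.2 ± 4.86) and BMF (36.6 ± 5.81). In vehicle, then, the 2 anti-apoptotic genes known as MITF targets were both near the bottom of this order.

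Under octanoate several neighbours changed places. PMAIP1 (1674 ± 64.5 per kb, SD, n = 2) stood above BCL2L1 (1483 ± 109), with no overlap of the libraries. BCL2A1 (310 ± 8.50) moved above BCL2L11 (100.0 ± 9.56), whereas BCL2 (61.6 ± 2.94) stayed below it. BCL2A1 was 1.21 and 1.07 times as abundant per kb as BCL2 with vehicle and 4.95 and 5.10 times with octanoate. The places of BID, BAK1 and BCL2L2 depend on the transcripts counted. With the exons of all annotated transcripts BID dropped to 569 ± 45.3 per kb in vehicle, overlapped BCL2L2 in both groups, and PMAIP1 overlapped BCL2L1 in vehicle.

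Added up per kb, the 5 anti-apoptotic members reached 12294 and 11937 with vehicle and 19418 and 19466 with octanoate. The 5 pro-apoptotic members reached 3118 and 3015 in vehicle and 3653 and 3368 in octanoate. The ratio of the 5 anti-apoptotic to the 5 pro-apoptotic members was thus 3.94 and 3.96 in vehicle and 5.32 and 5.78 in octanoate. The other family genes are not in these sums, among them the pore former BAX, which stood above the pro-apoptotic sum in every library. Its level per kb was 4931 and 4624 in vehicle and 4526 and 4282 in octanoate. MCL1 alone held from 83.1% to 87.2% of the anti-apoptotic sum. Without MCL1 the ratio was 0.667 and 0.642 in vehicle and 0.724 and 0.741 in octanoate, still without overlap but much closer. PMAIP1 held 33.7% and 37.0% of the pro-apoptotic sum in vehicle and 47.1% and 48.3% in octanoate. These sums are descriptions of transcripts and were not tested.

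**Figure D3:**
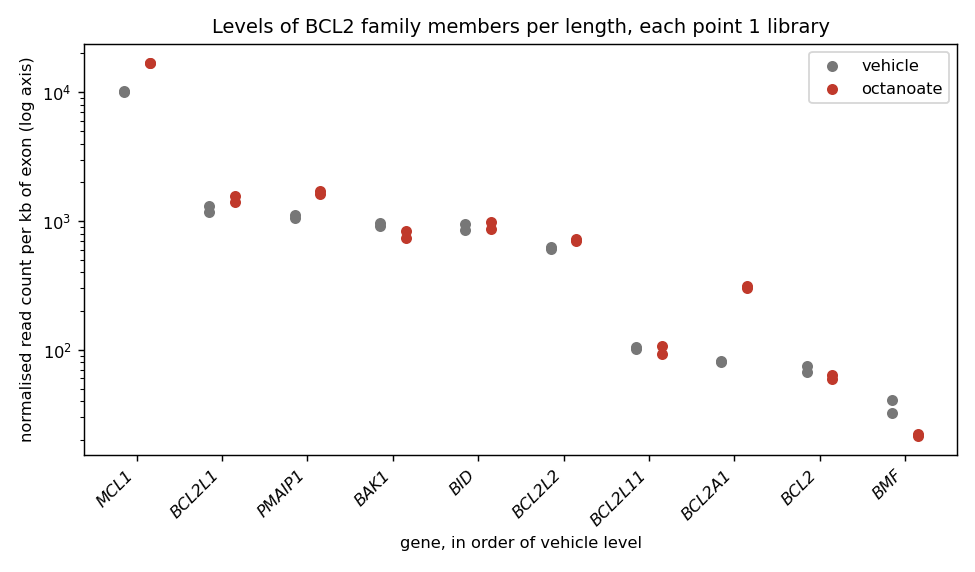
Normalised read count per kb of exon (vertical log axis) for the 10 members in the order of their vehicle level, with 1 point per library. MCL1 stands far above every other member in both groups, and BCL2A1 shows the widest gap between vehicle and octanoate.

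The other members of the family were 11 listed genes. Of the 10 that were tested, 2 rose and 1 fell (30% called, at the level of the 29.9% of all genes tested), and their median log2 difference was -0.064. HRK, a BH3-only gene best known from neurons, rose from 69.7 and 51.3 to 90.5 and 113 normalised counts, a log2 difference of 0.75 (SE 0.20, adjusted p by limma 0.00739). BOK, a relative of the pore formers, rose from 777 and 727 to 1047 and 900 (log2 difference 0.37, SE 0.086, adjusted p by limma 0.00204). BAD, a BH3-only protein controlled by growth factor kinases, fell from 426 and 451 to 378 and 335 (log2 difference -0.30, SE 0.10, adjusted p by limma 0.0306). None of these 3 calls held through every removal of a library. Leaving out a single library ended the call of HRK (without vehicle 2, adjusted p by limma 0.104; without octanoate 2, 0.0976) and of BOK (without octanoate 1, 0.0663). For BAD it was ended by leaving out vehicle 1 (0.0694), vehicle 2 (0.176) or octanoate 2 (0.259). DESeq2 on the recovered reads called neither HRK (adjusted p 0.0668) nor BAD (adjusted p 0.108).

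BAX, the second pore former, stood at 6962 and 6529 in vehicle and 6390 and 6046 in octanoate, a log2 difference of -0.12 (SE 0.059, adjusted p by limma 0.144). BBC3, which encodes the BH3-only protein PUMA, overlapped between the groups (log2 difference 0.13, adjusted p by limma 0.375). BIK (0.23), BCL2L12 (-0.12), BCL2L13 (-0.010), BCL2L14 (-0.33) and BCL2L15 (-0.31) were not called either, with adjusted p by limma from 0.223 for BCL2L12 to 0.921 for BCL2L13. BCL2L10 was listed at 0 in each library. The BH3-only genes thus went different ways: PMAIP1 and HRK rose, BMF and BAD fell, and BCL2L11, BID, BBC3 and BIK were not called.

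The wider death pathway was covered by 4 more lists, so that with the other family genes 59 pathway genes were tested. Of these 27 were called, 13 higher and 14 lower. That is 45.8%, against 29.9% of all genes tested and 38.3% of genes averaging 100 or more, where most of these genes lie. In the list of apoptosome, caspase and IAP genes 2 of 15 rose and 5 fell (46.7% called). BIRC3, which encodes the ubiquitin ligase cIAP2, rose from 258 and 235 to 470 and 463 normalised counts (log2 difference 0.92, SE 0.11, adjusted p by limma 3.69e-07). BIRC5, the mitotic gene of survivin, fell from 8384 and 7870 to 6706 and 6440 (log2 difference -0.31, SE 0.058, adjusted p by limma 0.000267).

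Among 10 tested genes of the death receptor pathway 5 rose and 1 fell, with a median log2 difference of 0.091. The share called was 60%, against 29.9% of all genes tested and 38.3% of genes averaging 100 or more, where all 10 lie. The TRAIL receptor genes TNFRSF10A and TNFRSF10B rose, by 0.61 (SE 0.065, adjusted p by limma 1.03e-07) and 0.31 (SE 0.056, adjusted p by limma 0.000145) in log2 units. TNFRSF10A went from 1717 and 1644 normalised counts to 2572 and 2549. RIPK1, the kinase that signals below these receptors, fell by 0.26 (SE 0.064, adjusted p by limma 0.00292). TNFSF10, the ligand TRAIL, stood between 1.08 and 3.85 normalised counts and was not tested.

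Of 12 binding partners and turnover factors none was called higher and 4 were lower (33.3% called, near the 29.9% of all genes tested). VDAC3, a channel of the outer membrane, fell by 0.37 (SE 0.058, adjusted p by limma 2.75e-05). DYNLL1, a dynein light chain that binds BIM and BMF, fell by 0.30 (SE 0.059, adjusted p by limma 0.000391). PPP2CA, the catalytic subunit of phosphatase PP2A, fell by 0.23 (SE 0.057, adjusted p by limma 0.00346), a call lost without vehicle 1 (adjusted p by limma 0.0581). HUWE1, FBXW7 and USP9X, which add or remove ubiquitin on MCL1, were not called (adjusted p by limma 0.124, 0.894 and 0.885).

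Of 12 transcriptional regulators of family genes 4 rose and 3 fell. This was 58.3% called, against 29.9% of all genes tested and 38.3% of genes averaging 100 or more, where all 12 lie. MYC, whose product sensitises cells to death, rose by 0.65 (SE 0.072, adjusted p by limma 1.94e-07). E2F1 rose by 0.47 (SE 0.066, adjusted p by limma 6.86e-06). DDIT3, which encodes the stress factor CHOP, rose from 689 and 583 to 949 and 872 normalised counts (log2 difference 0.52, SE 0.090, adjusted p by limma 9.21e-05). MITF fell from 3533 and 3330 to 2414 and 2511 (log2 difference -0.48, SE 0.063, adjusted p by limma 2.33e-06), while BCL2A1 rose and BCL2 was not called. The NF-kappaB subunits RELA and NFKB1 were not called (adjusted p by limma 0.771 and 0.995).

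**Figure D4:**
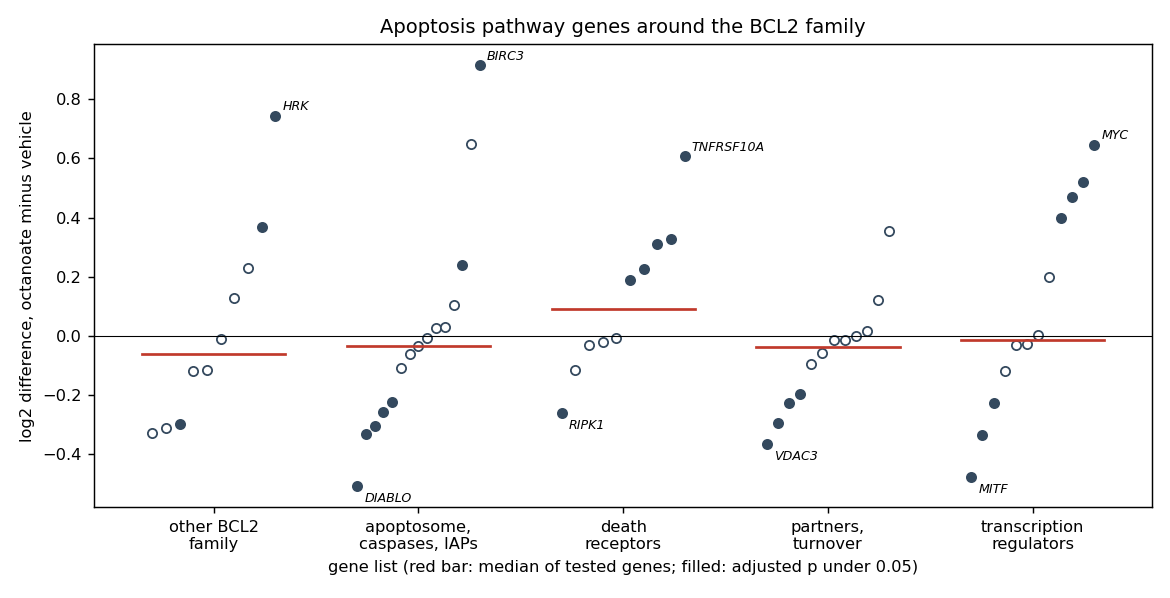
Log2 difference (octanoate minus vehicle, vertical axis) of the 59 tested pathway genes in 5 lists, filled where the adjusted p was under 0.05, with the list medians as red bars. BIRC3 (0.92) and HRK (0.75) are the highest points, and the medians lie between -0.064 and 0.091.

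In the authors' deposited table, where 12.9% of 33533 genes had an adjusted p under 0.05 (6.89% higher and 6.01% lower), 7 members were called, 5 higher and 2 lower. That share takes in genes of very low count, such as TNFSF10 with a mean of 2.70, whereas every member averages 100 or more. DESeq2 on the recovered reads called the same number of members, and 27.5% of 17894 genes (13.8% higher and 13.7% lower). The authors' deposited table gives log2 fold changes of 1.93 for BCL2A1 (adjusted p 2.76e-17), 0.74 for MCL1 (adjusted p 1.82e-47) and 0.63 for PMAIP1 (adjusted p 7.13e-15). For BMF, BAK1 and BCL2L2 the authors' deposited table lists adjusted p of 0.0184, 0.0248 and 0.0223. HRK and BAD are not called in the authors' deposited table (adjusted p 0.0967 and 0.164).

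Some counts can include or lose reads of other genes, since whether reads were assigned by strand is not given in the sources used here. In GENCODE 29 exons of ABALON, an antisense RNA, cover 43.0% of the exon length of BCL2L1 on the opposite strand. ABALON itself stood at 79.6 in vehicle and 116 in octanoate on average, far below BCL2L1. MIR4435-2HG covers 10.9% of BCL2L11 and BMF-AS1 8.46% of BMF on the opposite strand. Neither symbol was found among the genes with values, so their reads could not be examined. BCL2L2 shares 813 exon bases with the read-through gene BCL2L2-PABPN1, which averaged 16.1 in vehicle and 8.25 in octanoate. The counts of ABALON and BCL2L2-PABPN1 may themselves lack reads from the shared bases, so they do not bound how many reads were shared. BAK1 shares 656 bases at 95.3% identity with the pseudogene BAK1P1, which was not found among them either. BCL2A1 shares 287 bases at 95.5% with ST20. ST20 did not move with BCL2A1, standing between 118 and 122 in every library. No overlap or shared sequence of this kind was found for BCL2, PMAIP1 or BID, and MCL1 overlaps ADAMTSL4-AS1 by 2 bases only.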

How the data were processed

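RNA of A375 cells was sequenced from 2 vehicle and 2 octanoate libraries. Per the submitters' processing notes the tools were bcl2fastq 2.17, Trim Galore, STAR 2.4, Picard, HTSeq 0.9.1 and DESeq2, with build hg38; annotation and strand setting are not given in the sources used here. The authors deposited a signal per gene, a read count divided by 1 size factor per library, and a comparison table with a mean signal, log2 fold change, standard error, test score and p-value. Every positive value (100% in each library) was a whole multiple of its library's smallest value within a relative tolerance of 1e-06, so whole reads were recovered by division.

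Because the deposited values are not raw counts, the main test was limma 3.58.1 (R 4.3.3, intensity trend, two-sided, treatment as the only term) on log2(value + 1) for genes with a mean of at least 10. This scale understates changes of low genes. The alternatives tried were other pseudocounts (0.5 and 5), a minimum mean of 50 or none, TMM factors, equal column totals, no intensity trend, a replicate block, leaving out each library, edgeR 4.0.16 and DESeq2 1.42.0 on recovered reads. Restriction to genes found in GENCODE 29, and removal of trends with GC content and length, were chosen after seeing the data. Members and gene lists were chosen with earlier results of these data known. Named were all members, every other family gene, the 3 called genes with the smallest p of each other list, MITF and DDIT3; RELA, NFKB1, HUWE1, FBXW7, USP9X, TNFSF10 and the neighbours of members were added after their values were seen. 1 gene that this rule names is not reported here. GENCODE 29 gave gene models and overlaps, and blastn 2.17.0 searched shared sequence (at least 95% identity over at least 100 bases).

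On simulated counts for 20250 genes limma found 61.5% of the genes given a log2 change of 0.5, 91.5% at 1 and 93.8% at 2, with 4 false calls among 169. Only 200 genes were changed in the simulation, whereas 6048 were called in the data, so these shares need not carry over. No change below 0.5 was simulated, so differences as small as those of BCL2L1, BCL2L2 and BAK1 are not covered.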

Additional observations from a re-analysis of the deposited data

How the results depend on the processing

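Of 16 alternatives, the calls of BCL2A1, MCL1 and PMAIP1 held in every one, and that of BMF in all but the fit without an intensity trend (adjusted p 0.0665). Without the trend 3 members, 5 pathway genes and 1625 genes in all were called; without a filter these were 4, 14 and 2595, against 7, 27 and 6048. BCL2L1, BCL2L2 and BAK1 lost their calls in both of these fits. Leaving out a single library gave between 5 and 6 called members, between 19 and 22 pathway genes and between 4295 and 4757 genes. Some log2 differences changed sign when a library was left out: BID ranged from -0.042 (without vehicle 2; -0.042 without octanoate 1) to 0.12, BCL2L11 from -0.15 to 0.045, BIK from -0.044 to 0.50, BBC3 from -0.0093 to 0.26, BCL2L13 from -0.032 to 0.011 and BCL2L14 from -1.30 to 0.64. With GC content and length trends removed BCL2L13 was at 0.019. None of these 6 genes was called in the main comparison, and the cause was not tested. Only 74.8% of tested genes had a GC content, so that correction is void over all genes. It kept 7 members called. With the replicate number as a block 8 members, 34 pathway genes and 8376 genes were called, BCL2 (adjusted p 0.0145) and BAX (0.0172) among them. Deviations of same-numbered libraries had a correlation of 0.13 over 2 pairs, and the labels do not say what the numbers mark. BCL2A1 and BMF, which had the fewest reads among members, had SEs of 0.14 and 0.16, against 0.059 for MCL1. Each SE draws partly on a trend with level fitted over the tested genes, and the part of depth in this was not tested.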

Other observations

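ADAMTSL4-AS1, whose exons meet those of MCL1 over 2 bases on the same strand, rose as well, from 18.6 and 24.2 normalised counts in vehicle to 42.4 and 48.8 in octanoate (log2 difference 1.06, SE 0.29, adjusted p by limma 0.00800). ABALON, which overlaps BCL2L1, went from 91.3 and 67.8 to 138 and 94.3, a log2 difference of 0.53 close to the threshold (SE 0.20, adjusted p by limma 0.0496). PPP1R3E, which overlaps BCL2L2 on the opposite strand, went from 224 and 252 to 298 and 290 (log2 difference 0.31, SE 0.12, adjusted p by limma 0.0496). Without strand, reads of ABALON and PPP1R3E cannot be told apart from those of BCL2L1 and BCL2L2 where exons overlap.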
